A study of Mus musculus with 6 samples.

Results

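The ligament and ion genes are genes of the lateral wall of the cochlea: proteins of the spiral ligament's fibrocytes and the transporters, channel subunit and nuclear receptor that serve the ion content of endolymph. They were chosen by name, as Coch, Otos, Pou3f4, Slc12a2, Slc26a4, Bsnd, Esrrb, Kcnq1 and Kcne1, and 7 of these 9 matched a gene symbol among the 17666 genes measured. Kcnq1 and Kcne1, whose products form the potassium channel through which marginal cells secrete into endolymph, are not analysed here. RNA sequencing was done on auditory nerves of young adult mice, aged 1.5 to 2.5 months. There were 3 libraries labelled FactorB KO, a knockout of Cfb (complement factor B) on a C57 background, and 3 labelled wildtype, C57 mice. Each library was made from the nerve tissue dissected out of the 2 cochleas of 1 mouse. The knockout is labelled only by the gene, with no cell type or promoter restricting it, and neither the allele nor the sex of the mice was stated in those labels.

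Endolymph, the fluid that bathes the hair bundles, is rich in potassium and carries a positive potential. Fibrocytes of the spiral ligament take up potassium and pass it through gap junctions to the stria vascularis, where marginal cells secrete it into endolymph. Pendrin in spindle and root cells adds bicarbonate to that fluid. None of these cells belongs to the auditory nerve, but the ligament and the stria lie in the same small bony cochlea from which the nerve is dissected.

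The labels were checked first. In the libraries labelled FactorB KO the targeted gene, Cfb, stood at 336, 351 and 376 normalized counts, against 55, 39 and 116 in the libraries labelled wildtype. Its difference in log2(normalized count + 1), FactorB KO minus wildtype, was 2.47 (SE 0.38, limma adjusted p = 0.107). The targeted gene thus went against the labels without overlap, and every direction given here is between libraries as labelled. A normalized count is the authors' read count of a gene scaled per library and rounded. The normalized counts of a library summed to between 38675077 and 41496282, totals that the scaling set, so the sequencing depth is unknown. The labelled tissue was present in every library: Mbp, a myelin protein gene, had 144849 to 182193 normalized counts in the libraries labelled FactorB KO and 133466 to 264638 in those labelled wildtype. Snap25, a synaptic protein gene of neurons, had 80047 to 100096 in the libraries labelled FactorB KO and 59190 to 125727 in those labelled wildtype. Wildtype replicate 3 stood apart, with an array weight of 0.22 in limma against 0.74 to 2.1 in the other 5 libraries, and the fitted differences of the 7 genes and the medians of the gene lists are given with and without it.

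No ligament or ion gene differed between the labels beyond the spread between libraries, and in all 7 the values of the 3 libraries on each side overlapped. Fitted differences below are in log2(normalized count + 1), FactorB KO minus wildtype, by limma across all genes. At an adjusted p (Benjamini-Hochberg, limma) under 0.05, 0 of 7 were called, against a share of 0.158% over all genes, and 0 of 7 had an unadjusted p under 0.05 by limma, against 20.0% over all genes. The authors' deposited table called 0 of 7 at a false discovery rate under 0.05, against 7.39% of the 15605 genes with a rate. Among all genes, 28.5% had values that did not overlap between labels, against 0 of the 7. Each of the 7 genes had its highest value of the 6 libraries in wildtype replicate 3, as did 4872 of all 17666 genes. This was not particular to the 7. In the cell type lists described below it held for 5 of 6 marginal, 5 of 6 intermediate and 5 of 6 root and spindle cell genes. It also held for 6 of 8 fibrocyte and 3 of 5 basal cell genes. In wildtype replicate 3, Slc12a2, Slc26a4, Bsnd and Esrrb lay more than 2-fold above the median of the other 5 libraries, as did 7.86% of all genes. The 3 fibrocyte genes Coch, Otos and Pou3f4 did not.

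**Figure D1:**
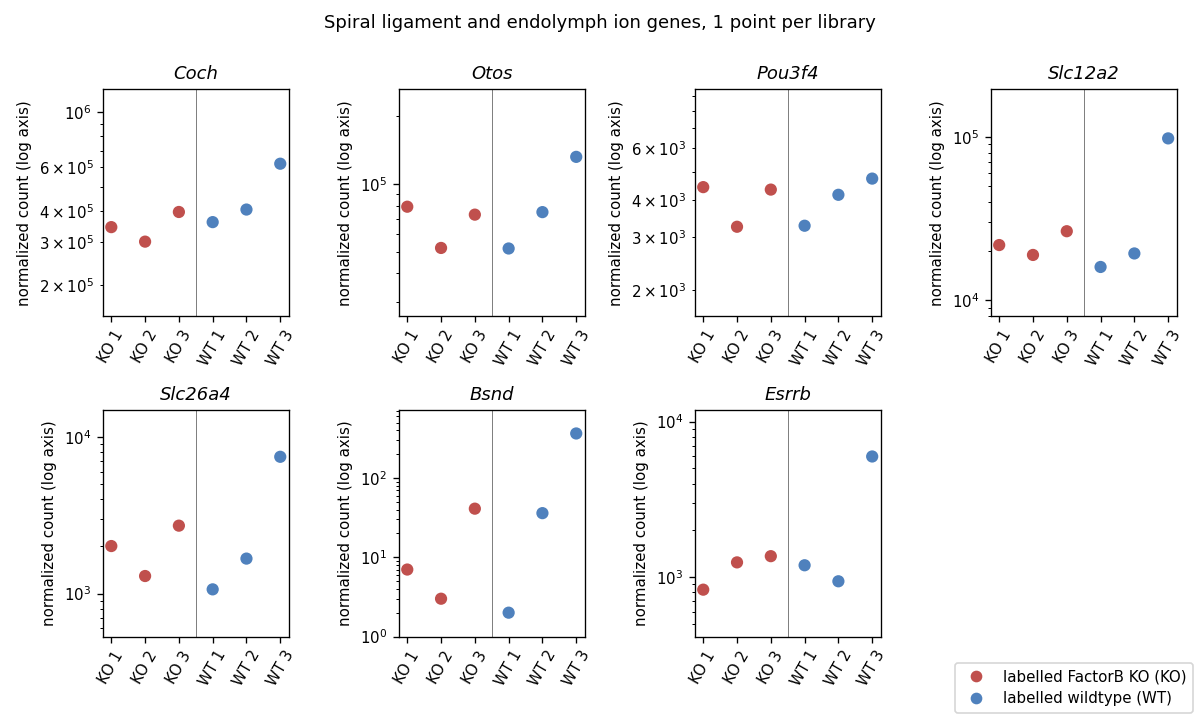
Normalized counts (log axes, each panel with its own range) of the 7 measured ligament and ion genes in the 3 libraries labelled FactorB KO (red) and the 3 labelled wildtype (blue), 1 point per library. Wildtype replicate 3 is the highest point in every panel, by 5.06-fold over the median of the other 5 libraries for Slc12a2 and by 1.13-fold for Pou3f4.

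Promoter windows are shown for Coch and Otos, the pair of fibrocyte genes whose profiles lay closest by the distance described below. They are also shown for Slc26a4 and Esrrb, which were both high in wildtype replicate 3. Each run covers 100 bases before to 50 bases from the gene's start in RefSeq (GRCm38.p6, the assembly of mm10), read 5′ to 3′ along the gene, and a match of the TATA box letters TATAAA on either strand is in capitals. The windows are chr12:51593241-51593390, plus strand for Coch, chr1:92648792-92648941, minus strand for Otos, chr12:31559935-31560084, minus strand for Slc26a4 and chr12:86361017-86361166, plus strand for the first of the Esrrb starts.
Coch: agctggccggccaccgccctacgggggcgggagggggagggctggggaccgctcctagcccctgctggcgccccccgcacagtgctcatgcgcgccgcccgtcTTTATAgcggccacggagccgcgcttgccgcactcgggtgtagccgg
Otos: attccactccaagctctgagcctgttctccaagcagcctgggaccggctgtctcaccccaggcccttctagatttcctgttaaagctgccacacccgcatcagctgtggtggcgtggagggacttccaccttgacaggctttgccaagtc
Slc26a4: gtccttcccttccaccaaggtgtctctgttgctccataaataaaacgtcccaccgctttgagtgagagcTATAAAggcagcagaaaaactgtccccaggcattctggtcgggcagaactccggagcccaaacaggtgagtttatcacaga
Esrrb: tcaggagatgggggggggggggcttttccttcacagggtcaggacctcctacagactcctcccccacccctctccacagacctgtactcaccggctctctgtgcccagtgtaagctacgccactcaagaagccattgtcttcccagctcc

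Promoter entries were used for 5 of the 7 genes, with none used for Slc12a2 or Bsnd. Their 300-base windows were searched on both strands for 3 motifs. The letters TATAAA were found at position -31 of Slc26a4, and at position 4 of Coch on the opposite strand, where position 1 is the RefSeq start. The RefSeq gene bounds, given as coordinates with each gene below, began farther upstream for 3 genes. The start used here lay 58 bases inside those bounds for Coch and for Otos and 71 bases inside them for Slc26a4. It equalled the gene bound for Pou3f4 and the first Esrrb start. The letters TATAAA occurred in 13.6% of all 32851 promoter windows. The letters AAGGTCA, the element bound by estrogen-related receptors such as the product of Esrrb, were in none of the windows of these 5 genes and in 4.72% of all windows. The octamer ATGCAAAT, bound by POU proteins such as that of Pou3f4, was in none of them and in 1.74% of all windows. No overlap with another motif occurred. These are matches of letters in short windows and say nothing of binding.

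Levels between genes were compared per kilobase of transcript, using GENCODE transcript lengths. By this measure the order in the libraries labelled FactorB KO was Coch, Otos, Slc12a2, Pou3f4, Slc26a4, Esrrb and Bsnd. Coch averaged 129404 ± 17836 normalized counts per kilobase in the libraries labelled FactorB KO and 172354 ± 51885 in those labelled wildtype (SD, n = 3 each). Otos averaged 96720 ± 20338 per kilobase in the libraries labelled FactorB KO and 122496 ± 58763 in those labelled wildtype (SD, n = 3 each). Coch lay above Otos in 6 of 6 libraries, although their ranges over the libraries labelled FactorB KO overlapped slightly, with a lowest Coch value of 112128 and a highest Otos value of 112574 per kilobase. Pou3f4 lay above Slc26a4 in 5 of 6 libraries, and the exception was wildtype replicate 3 with 1617 per kilobase for Pou3f4 and 2422 for Slc26a4. Every other neighbouring pair kept its order in 6 of 6 libraries. Coch was among the most abundant transcripts of the tissue as sampled: per kilobase it ranked 2 in every library labelled FactorB KO and 2 or 3 in those labelled wildtype, among the 17358 genes with a length. Otos ranked between 4 and 7 over the 6 libraries. Together the 7 genes took 0.922% to 1.25% of the normalized counts of a library labelled FactorB KO, and 1.08%, 1.31% and 2.09% in wildtype replicates 1, 2 and 3.

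Coch (chr12:51593283-51606619, plus strand) encodes cochlin, a secreted matrix protein of the fibrocytes, and the human gene is a deafness gene. It had 344060, 300615 and 396121 normalized counts across the libraries labelled FactorB KO, against 360455, 405170 and 620615 in the libraries labelled wildtype. Wildtype replicate 3 was the highest and the other 5 libraries overlapped. The means were 346932 ± 47818 in the libraries labelled FactorB KO and 462080 ± 139104 in those labelled wildtype (SD, n = 3 each). The log2 difference was -0.38 (SE 0.38, 95% interval -1.28 to 0.52, limma adjusted p = 0.606) and -0.15 without wildtype replicate 3. In bulk tissue such as this, fewer cells of a type and less RNA per cell cannot be told apart.

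Otos (chr1:92644218-92648899, minus strand) encodes otospiralin, a small secreted protein of the fibrocytes. It had 79252, 51947 and 73073 normalized counts across the libraries labelled FactorB KO, against 51660, 74982 and 132069 in the libraries labelled wildtype. The lowest values, in FactorB KO replicate 2 and wildtype replicate 1, were nearly equal, and wildtype replicate 3 stood highest. Its log2 difference was -0.26 (SE 0.37, 95% interval -1.12 to 0.61, limma adjusted p = 0.733), and 0.11 without wildtype replicate 3.

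Pou3f4 (chrX:110814379-110819108, plus strand) encodes a POU-domain transcription factor of the otic mesenchyme, and the human gene is a gene of X-linked deafness. It was the steadiest of the 7, with 4430, 3258 and 4346 normalized counts across the libraries labelled FactorB KO, against 3284, 4174 and 4733 in the libraries labelled wildtype. The values of the labels interleaved and wildtype replicate 3 was only slightly above the rest. The log2 difference was -0.02 (SE 0.18, 95% interval -0.44 to 0.41, limma adjusted p = 0.971), and 0.10 without wildtype replicate 3.

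Slc12a2 (chr18:57878512-57946821, plus strand) encodes the sodium-potassium-chloride cotransporter that loads potassium into marginal cells and into some ligament fibrocytes. It had 21775, 18939 and 26461 normalized counts across the libraries labelled FactorB KO, against 15989, 19343 and 97905 in the libraries labelled wildtype. Wildtype replicate 3 lay 5.06-fold above the median of the other 5 libraries, which spanned 15989 to 26461. The log2 difference was -0.49 (SE 0.64, 95% interval -2.01 to 1.03, limma adjusted p = 0.705). Without wildtype replicate 3 it was 0.34 (SE 0.17, 95% interval -0.07 to 0.74, limma adjusted p = 0.235), so its direction turned with that library and it was not called either way.

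Slc26a4 (chr12:31519814-31560055, minus strand) encodes pendrin, the anion exchanger of spindle and root cells. It had 2008, 1293 and 2709 normalized counts across the libraries labelled FactorB KO, against 1063, 1670 and 7448 in the libraries labelled wildtype. Wildtype replicate 3 lay 4.46-fold above the median of the others, and the other values interleaved. Its log2 difference was -0.30 (SE 0.69, 95% interval -1.92 to 1.31, limma adjusted p = 0.836), and 0.52 without wildtype replicate 3 (limma adjusted p = 0.305).

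Bsnd (chr4:106483456-106492243, minus strand) encodes barttin, the subunit without which the chloride channels of marginal cells do not reach the membrane. It had 7, 3 and 41 normalized counts across the libraries labelled FactorB KO, against 2, 36 and 364 in the libraries labelled wildtype. Its levels fell into 3 steps that crossed the labels: 7 or fewer in FactorB KO replicates 1 and 2 and wildtype replicate 1, 41 and 36 in FactorB KO replicate 3 and wildtype replicate 2, and 364 in wildtype replicate 3. The log2 difference was -1.64 (SE 1.71, 95% interval -5.67 to 2.40, limma adjusted p = 0.624), and 0.07 without wildtype replicate 3. The read depth behind these low values is unknown.

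Esrrb (chr12:86361117-86521628, plus strand) encodes an estrogen-related nuclear receptor that marginal cells of the mouse express. It had 833, 1247 and 1367 normalized counts across the libraries labelled FactorB KO, against 1195, 943 and 5969 in the libraries labelled wildtype. Wildtype replicate 3 lay 4.99-fold above the median of the others, which overlapped between labels. Its log2 difference was -0.75 (SE 0.66, 95% interval -2.30 to 0.80, limma adjusted p = 0.555), and 0.08 without wildtype replicate 3. By an exact permutation test over the samples (two-sided, smallest possible p = 0.1), the 7 genes had p between 0.2 (Coch) and 0.9 (Pou3f4, Slc12a2 and Slc26a4). In the authors' deposited table the signed fold changes of the 7 genes were between -7.82 (Bsnd) and -1.01 (Pou3f4), all at a false discovery rate of 0.292 or more.

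**Figure D2:**
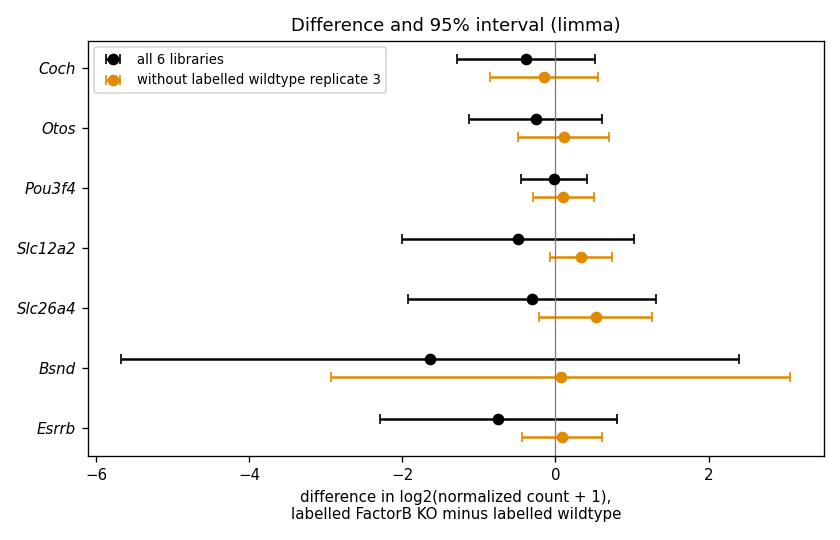
Difference in log2(normalized count + 1), libraries labelled FactorB KO minus libraries labelled wildtype, with the 95% interval by limma, from all 6 libraries (black) and without wildtype replicate 3 (orange). Every interval spans 0, and leaving out that library moved Slc12a2 to 0.34 and Slc26a4 to 0.52.

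Dividing by Coch in the same library compared the genes with the most abundant of the 7. Slc12a2 had 63.3, 63.0 and 66.8 normalized counts per 1000 of Coch in the libraries labelled FactorB KO, against 44.4, 47.7 and 158 in the libraries labelled wildtype. The 3 libraries labelled FactorB KO thus lay close together and between wildtype replicates 1 and 2 on one side and wildtype replicate 3 on the other. Pou3f4 had 12.9, 10.8 and 11.0 per 1000 of Coch in the libraries labelled FactorB KO, against 9.11, 10.3 and 7.63 in the libraries labelled wildtype. This was the one ratio of 6 whose values did not overlap between labels, against 23.7% of all genes taken relative to Coch. Its p was 0.1 by an exact permutation test (two-sided), the smallest that 3 against 3 can give. Otos was similar on both sides, with 196 ± 30.4 per 1000 of Coch in the libraries labelled FactorB KO and 180 ± 35.0 in those labelled wildtype (SD, n = 3 each). Slc26a4 and Esrrb had their highest ratios, 12.0 and 9.62 per 1000 of Coch, in wildtype replicate 3.

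**Figure D3:**
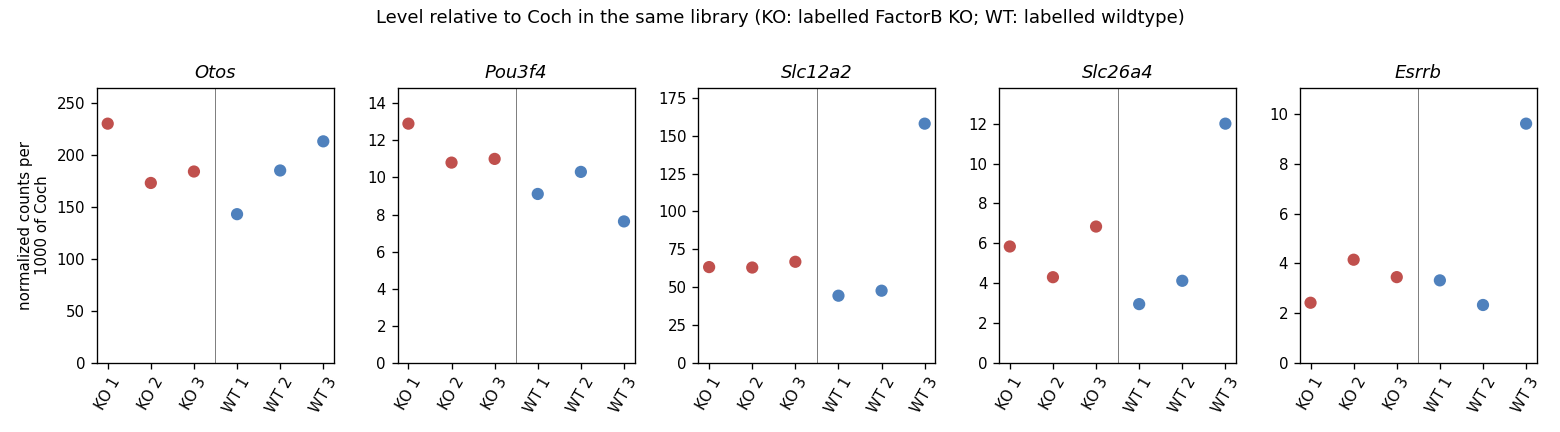
Normalized counts of 5 genes per 1000 normalized counts of Coch in the same library (linear axes from 0), with libraries labelled FactorB KO in red and libraries labelled wildtype in blue. Slc12a2, Slc26a4 and Esrrb are high in wildtype replicate 3, at 158, 12.0 and 9.62, while Otos stays between 143 and 230 and Pou3f4 between 7.63 and 12.9.

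The likeness of patterns was measured as the root mean square distance between log2(normalized count + 1) profiles over the 6 libraries, each centred on its mean. Coch and Otos were 0.22 apart and Slc12a2 and Slc26a4 0.23 apart, whereas Coch and Slc12a2 were 0.60 and Coch and Slc26a4 0.64 apart. Slc12a2 and Esrrb were 0.32 and Slc26a4 and Esrrb 0.52 apart. Pou3f4 was 0.24 from Coch and 0.28 from Otos, and at least 0.75 from each ion-side gene (Slc12a2, Slc26a4, Bsnd and Esrrb). Otos was 0.50 from both Slc12a2 and Slc26a4, its nearest ion-side genes. The 3 fibrocyte genes thus lay nearer to one another than to any ion-side gene. This distance is not scaled by how much a gene varies. The root mean square spread about the gene's own mean was 0.33 in Coch, 0.45 in Otos and 0.21 in Pou3f4. That spread was 0.88 in Slc12a2, 0.92 in Slc26a4, 0.94 in Esrrb and 2.38 in Bsnd. Genes that vary little lie near one another whatever their pattern, so this nearness does not show a shared pattern. The ion-side genes were less close to one another, with Slc26a4 and Esrrb slightly farther apart than Otos and Slc26a4. Bsnd was at least 1.57 from every other gene of the 7. Among 12845 other genes with a mean of at least 100, the nearest to Coch were Il11ra1 (0.054) and Akt2 (0.058), and the nearest to Otos were Efhd1 (0.056) and Mad2l2 (0.061). Pdgfrl (0.033) and Rfx2 (0.042) were nearest to Pou3f4. Gpx3 (0.082), a secreted glutathione peroxidase, and Tes (0.094) were nearest to Slc12a2. Aass (0.13) and Spint2 (0.20) were nearest to Slc26a4, and Paqr5 (0.24) and D17H6S56E-5 (0.25) to Esrrb. Gpx3 had 5321, 5003 and 6280 normalized counts across the libraries labelled FactorB KO, against 3600, 4688 and 21810 in those labelled wildtype, so its high value was also in wildtype replicate 3. These distances are a description over 6 libraries.

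The other genes of the endolymph pathway did not differ beyond the spread by limma either. Of 25 listed partners, 23 were measured, 0 were called by limma in either direction, and their median log2 difference was -0.05, beside 0.01 over all genes. Without wildtype replicate 3 the median was 0.25. Atp1b1, a subunit gene of the sodium-potassium pump, averaged 74696 ± 6927 normalized counts in the libraries labelled FactorB KO and 85831 ± 11758 in those labelled wildtype (SD, n = 3 each). In wildtype replicate 3, 11 of the 23 lay more than 2-fold above the median of the other libraries. Wnk1, a kinase gene upstream of the cotransporter, was the partner called in the authors' deposited table, with a fold change of 1.60 and a false discovery rate of 0.00196. Wnk1 had 25248, 24250 and 24249 normalized counts across the libraries labelled FactorB KO, against 17929, 12849 and 15202 in the libraries labelled wildtype, and did not pass by limma over all genes. Wnk1 and the genes beside Bsnd below were picked after their values were seen.

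Many markers of the lateral wall's cell types, but not all, moved with the ligament and ion genes in wildtype replicate 3. For the stria's marginal cells 5 of 6 listed genes, and for its intermediate cells 5 of 6 measured genes, lay more than 2-fold above the median of the other 5 libraries, against 7.86% of all genes. It was 3 of 6 root and spindle cell genes, 2 of 5 basal cell genes and 2 of 8 fibrocyte genes. In the marginal and in the basal cell list, 1 gene each had its lowest value of the 6 libraries in wildtype replicate 3. The lists share genes with one another and with the partners, among them Atp1b2, Kcnj10, Kcnj16, Gjb2 and Gjb6. Atp1b2, a pump subunit gene, had 17875, 16805 and 17895 normalized counts across the libraries labelled FactorB KO, against 12637, 17097 and 60717 in the libraries labelled wildtype. Kcnj10, the potassium channel gene of intermediate cells that glia also express, had 9271 to 9808 in the libraries labelled FactorB KO and 7828, 8322 and 20896 in those labelled wildtype. Gjb6 and Gjb2, the gap junction genes of the fibrocyte network, had 41984 and 30327 in wildtype replicate 3, and their highest values elsewhere were 21512 and 22021 in FactorB KO replicate 1. Epyc, a proteoglycan gene, had 16117 in wildtype replicate 3 and between 4130 and 6361 elsewhere. Kcnj16, a potassium channel gene of the root and spindle list, had 6558 there and between 2393 and 4268 elsewhere. Kcnj13, another of the intermediate cell list, had 2401 there and between 493 and 800 elsewhere. Slc4a11, Dct and Met of these lists are not analysed here. Tjp1 and Cldn11, the tight junction genes of the basal cell list, had mean counts of 13175 ± 960 and 8193 ± 378 in the libraries labelled FactorB KO. Their means were 10772 ± 912 and 13622 ± 4280 in the libraries labelled wildtype (SD, n = 3 each). In wildtype replicate 3 Tjp1 had 10752, within its range of 9870 to 14145 elsewhere. Cldn11 had 16902 there and between 7756 and 15184 elsewhere.

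By limma 0 members of the fibrocyte, marginal, intermediate, basal, or root and spindle lists were called, and their median log2 differences were -0.37, -0.20, -0.73, -0.09 and -0.10. Without wildtype replicate 3 these medians were -0.16, 0.36, -0.03, 0.10 and 0.14, so that those of the marginal, basal, and root and spindle lists turned in sign. At an unadjusted p under 0.05 by limma the lists had 3 of 8, 0 of 6, 1 of 6, 2 of 5 and 0 of 6 members, beside 20.0% of all genes. In the authors' deposited table Cav1, a caveolar protein gene of the fibrocyte list, was called as lower, with a fold change of -1.48 and a false discovery rate of 0.0117. Without wildtype replicate 3, limma called 3.21% of all genes and 2 of 6 marginal cell genes, both higher in the libraries labelled FactorB KO. They were Heyl, a Notch target (log2 difference 0.67, SE 0.13, adjusted p = 0.0441), and Lmo7 (0.83, SE 0.12, adjusted p = 0.0262).

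Most nerve markers were at their lowest in the same library. Of the 6 peripheral myelin genes 5, and of the 8 spiral ganglion neuron genes 6, had their lowest value of the 6 libraries in wildtype replicate 3. So did 4646 of all 17666 genes. The summed level of the neuron list was 415091, 504454 and 453352 normalized counts in the libraries labelled FactorB KO, and 523946, 479176 and 299071 in those labelled wildtype. The summed level of the marginal cell list was 51654 to 66069 in the libraries labelled FactorB KO and 42437, 46735 and 245938 in those labelled wildtype. Red cell genes were also highest in wildtype replicate 3, in 8 of 8, against 4872 of all 17666 genes. Their summed level was 33056 in wildtype replicate 3, 2698 to 3878 in the libraries labelled FactorB KO and 10641 and 11033 in wildtype replicates 1 and 2. Of 10 organ of Corti genes, 2 lay more than 2-fold above the median of the other libraries in wildtype replicate 3. That median includes the libraries labelled FactorB KO, where the summed level of the list was 32981, 34297 and 18226 normalized counts. In those labelled wildtype the sum was 8880, 8158 and 18719, so replicate 3 was the highest of these 3. The mean deviation of the list was highest in FactorB KO replicates 1 and 2, at 1.13 and 1.09. Otog and Otoa, matrix and attachment protein genes of the organ of Corti list, had 4781 to 15071 and 6497 to 8092 in the libraries labelled FactorB KO, and 1811 to 5163 and 3467 to 5880 in those labelled wildtype. Hba-a1 and Hbb-b1, globin genes, had 975 to 1151 and 567 to 891 in the libraries labelled FactorB KO, and 3217 to 8097 and 2729 to 9273 in those labelled wildtype. Calb2, a calcium-binding protein gene of the neuron list, was at 82027 to 102582 in the libraries labelled FactorB KO and 86090 to 124269 in those labelled wildtype. Spp1, the most abundant gene of the bone list, had 298110 in wildtype replicate 3 and 90254 to 129521 elsewhere. Col1a1, a collagen gene of the same list, had 3776 to 5328 in the libraries labelled FactorB KO and 2848 to 6189 in those labelled wildtype. By limma 0 genes of these 5 lists were called, and their median log2 differences were -0.23 (myelin), 0.12 (neurons), 1.45 (organ of Corti), -0.67 (bone) and -2.41 (red cells). Without wildtype replicate 3 these medians were -0.49, -0.20, 1.98, -0.24 and -1.82, with the neuron list turned in sign. In that fit limma called 7 of 10 organ of Corti genes, all higher in the libraries labelled FactorB KO. It called 4 of 8 red cell genes, all lower, against 3.21% of all genes in either direction. At an unadjusted p under 0.05 by limma the lists had 1 of 6, 0 of 8, 8 of 10, 2 of 5 and 8 of 8 genes, beside 20.0% of all genes. The authors' deposited table called 5 of the 10 organ of Corti genes as higher in the libraries labelled FactorB KO. It called 8 of the 8 red cell genes, 1 of 6 myelin genes and 2 of 5 bone genes as lower. The share called in either direction was 7.39% of all genes with a rate. Ahsp of the red cell list is not analysed here. The part of these other tissues in the differences of the ligament and ion genes was not tested.

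**Figure D4:**
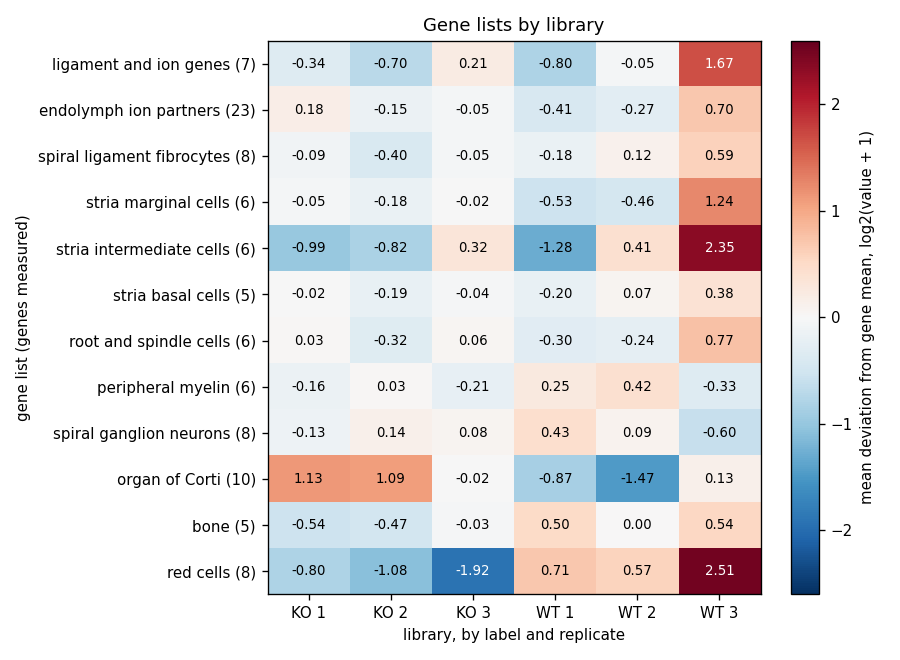
Mean deviation of each gene list from its genes' means over the 6 libraries, in log2(normalized count + 1), with libraries labelled FactorB KO (KO) left of those labelled wildtype (WT) and the number of measured genes beside each list. The 7 ligament and ion genes reach 1.67 in wildtype replicate 3, where the marginal cell list is at 1.24, the intermediate cell list at 2.35 and the neuron list at -0.60. The value of 1.67 is raised by Bsnd, which has 364 normalized counts in that library and 2 to 41 in the other 5.

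The 3 steps of Bsnd were also seen in some genes of the lists. Tyr, the pigment enzyme gene of intermediate cells, had 8, 17 and 207 normalized counts across the libraries labelled FactorB KO, against 3, 268 and 3775 in the libraries labelled wildtype. Mlana, another pigment cell gene, had 3, 8 and 56 in the libraries labelled FactorB KO, against 4, 56 and 739 in those labelled wildtype. Atp6v0a4, a subunit gene of the vacuolar proton pump, had 21, 16 and 39 in the libraries labelled FactorB KO, against 9, 37 and 402 in those labelled wildtype. In all 4 genes FactorB KO replicate 3 and wildtype replicate 2 were alike and lay between wildtype replicate 3 and the other libraries. In Atp6v0a4 the lower step was not clear, as its lowest values spanned 9 to 21 and the next value was 37. The distance of the Bsnd profile was 0.71 from Mlana, 0.88 from Atp6v0a4 and 1.19 from Tyr, and 2.04 from Kcnj10. Pmel and Tyrp1, further pigment cell genes, had 152 to 196 and 30 to 55 in the libraries labelled FactorB KO and 217 to 418 and 26 to 42 in those labelled wildtype, without these steps.

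**Figure D5:**
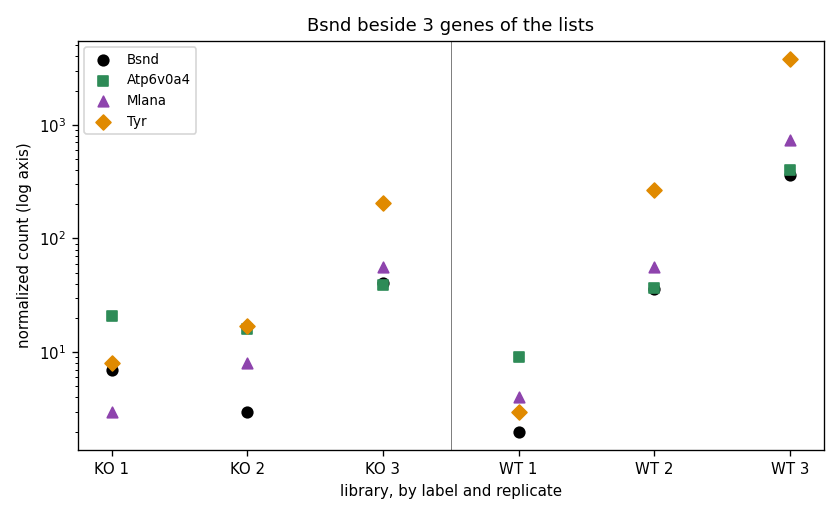
Normalized counts (log axis) of Bsnd, Atp6v0a4, Mlana and Tyr in each library, labelled FactorB KO (KO) left of labelled wildtype (WT). All 4 genes have their highest value in wildtype replicate 3 (364, 402, 739 and 3775), and FactorB KO replicate 3 and wildtype replicate 2 follow with similar values.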

How the data were processed

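Auditory nerves of 6 mice, 3 labelled FactorB KO and 3 labelled wildtype, were sequenced as total RNA after TruSeq library preparation, per the labels' protocols. The submitters' processing notes list Partek, TopHat2 and DESeq2 and the mm10 build, with neither version nor order. The deposited values are a score made by the authors: gene counts scaled per sample and rounded, as read from the values. Median-of-ratios factors lay between 1.0038 and 1.0068, and 99.9% of 13938 genes with both means over 50 had a deposited fold change within 1% of the ratio of column means. Annotation, filters and strand use are not given in the sources used here. There were 0 unused sample columns. Per the file headers, a signed fold change and a false discovery rate from the authors stand beside them, with 2061 genes without a rate.

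The members and gene lists were chosen with earlier results of these data known. Values were analysed as log2(value + 1), with a mean of at least 1 required, which removed 0 genes. Limma 3.58.1 in R 4.3.3 fitted the label alone across all genes (eBayes with trend, Benjamini-Hochberg). This scale understates the change of low genes. Transcript lengths are from GENCODE vM21 (98.3% of genes matched). The fit was tested on simulated data. Named are all members, up to 4 called genes of a list or else its 2 most abundant, and the 2 nearest profiles, except some genes that are not reported here. Genes picked after their values were seen were Wnk1, Cav1, Heyl, Lmo7, Tyr, Mlana, Pmel, Tyrp1 and Atp6v0a4. Depth per sample is unknown, and no overlapping gene was annotated at any member. The 15 alternatives cover pseudocount, filter, scaling, transcript length, array weights, a replicate block and each library left out.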

Additional observations from a re-analysis of the deposited data

How the results depend on the processing

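The count of called members was 0 under all 15 alternatives, and the adjusted p of the 7 genes by limma was never below 0.181 (Bsnd without wildtype replicate 1, where its unadjusted p was 0.043). Among these alternatives, omitting the filter could not change a result, because the filter had removed 0 genes. Directions were not stable. Without wildtype replicate 3 the log2 difference was above 0 in Otos (0.106), Pou3f4 (0.102), Slc12a2 (0.335), Slc26a4 (0.524), Bsnd (0.067) and Esrrb (0.082), and -0.149 in Coch. With array weights, which gave wildtype replicate 3 a weight of 0.22, it was 0.057 in Pou3f4, 0.035 in Slc12a2 and 0.22 in Slc26a4. It was 0.113 in Coch after quantile normalization, 0.068 in Otos after transcript length correction, and 0.127 and 0.011 in Pou3f4 without FactorB KO replicate 2 and wildtype replicate 2. The cause was not tested. Over the libraries left out in turn, differences ranged from -0.541 to -0.149 in Coch, from -0.571 to 0.106 in Otos, from -0.162 to 0.127 in Pou3f4, from -0.972 to 0.335 in Slc12a2, from -0.88 to 0.524 in Slc26a4, from -3.396 to 0.067 in Bsnd and from -1.248 to 0.082 in Esrrb. Genes called over the whole table numbered 28, with 111 under array weights, 7 with the replicate block, and 0 to 566 with a library left out; 0 without any one FactorB KO library (2218, 1797 and 1892 at an unadjusted p under 0.05 by limma), 87, 2 and 566 without wildtype replicates 1, 2 and 3. Called list members were 0 to 2 (marginal cells), 0 to 1 (basal cells), 0 to 7 (organ of Corti) and 0 to 4 (red cells) with a library left out, the highest without wildtype replicate 3 except for basal cells (without wildtype replicate 1), and 1 (organ of Corti) and 3 (red cells) under array weights. Replicate numbers did not pair the samples: deviations of same-numbered libraries had correlations of -0.065, 0.103 and 0.246, while FactorB KO replicate 2 and wildtype replicate 1 had 0.469, and with the replicate block 0 members were called. With the depth unknown, no counting error could be given for low genes such as Bsnd.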
